A study of Mus musculus with 8 samples.

Results

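The genes described here encode the subunits of the respiratory chain and of the ATP synthase that are carried in the nuclear genome. They were taken by name: every protein-coding gene whose symbol starts with Ndufa, Ndufb, Ndufc, Ndufs, Ndufv, Uqcr, Atp5 or Cox4 to Cox8, together with Sdha, Sdhb, Sdhc, Sdhd, Cyc1 and Cycs, and without the Ndufaf assembly factors. The mouse annotation holds 88 such gene identifiers, of which 82 were among the 13725 genes of the expression table and 80 were expressed highly enough to be tested. The study sequenced RNA from pancreatic islets of female NOD mice aged 10 weeks, a strain that develops autoimmune diabetes. There were 4 libraries from mice given vehicle, numbered 1, 3, 4 and 5 in the labels, and 4 from mice given PAHSA (spelled PASHA in the treatment labels), numbered 1 to 4. PAHSAs are lipids in which palmitic acid is joined by an ester bond to a hydroxylated stearic acid. How much was given, how and for how long is not stated in the labels used here. The design text speaks of 4 mice per group, while the protocol says that the islets of 2 mice were pooled for a sample. A library may therefore stand for 1 mouse or for a pool, and a p-value here reflects only how much the libraries of a group vary. All mice were of the same strain, sex and age, and no group outside NOD was sequenced as a reference.

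The respiratory chain sits in the inner mitochondrial membrane. Complex I takes electrons from NADH and complex II takes them from succinate; both pass them through ubiquinone to complex III, cytochrome c and complex IV, which reduces oxygen to water. Complexes I, III and IV pump protons, and complex V, the ATP synthase, lets them flow back and makes ATP. In beta cells the ATP made from glucose in this way closes potassium channels and so triggers insulin release. The subunits of complex II all come from nuclear genes, whereas complexes I, III, IV and V also hold subunits encoded by mitochondrial DNA. Some of the nuclear genes are known to have binding sites for the transcription factors NRF-1 and GABP, an ETS factor, in their promoters.

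The 250 bases before the transcription start were therefore searched in RefSeq (assembly GRCm38.p6) on both strands for an NRF-1 motif (the run of 10 capitals in the sequences printed here, with any base allowed at the sixth position), for an ETS motif, CCGGAAG, and for a YY1 motif, AAGATGGCG. RefSeq promoters were matched for 66 of the 80 tested members. The NRF-1 motif was found in 12 of the 66 (18.2%), against 3.87% of 27025 RefSeq promoters. The ETS motif was found in 11 of the 66 (16.7%), against 7.07% of all promoters. The 27025 promoters were not limited to genes expressed in islets and were not matched to the members in base composition. The YY1 motif was found in 0 of the 66 and in 0.592% of all promoters. Bases after the start were not searched, and at so low a share 0 of 66 does not show that YY1 sites are absent. At least 1 of the 3 motifs was found in 20 of the 66 members, so most showed none of these letters. The motifs can share bases at their ends but do not in the stretches printed here, and a match describes the sequence only. The next 4 promoters, each with more than 1 match in its 250 bases and chosen after the matches were seen, are shown by 120 bases, read 5′ to 3′ on the minus strand on which all 4 genes lie. Each stretch ends just before the start given by RefSeq or by GENCODE, whichever lies farther upstream. They are Sdha at chr13:74350281-74350400, Sdhd at chr9:50603850-50603969, Ndufb4 at chr16:37654454-37654573 and Cox6a1 at chr5:115348982-115349101. Capitals mark the matches on either strand: all are the NRF-1 motif except the second match of Sdhd, which is the ETS motif read on the other strand.
Sdha: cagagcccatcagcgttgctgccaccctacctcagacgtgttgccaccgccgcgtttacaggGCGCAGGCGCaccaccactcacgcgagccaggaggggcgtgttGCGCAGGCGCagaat
Sdhd: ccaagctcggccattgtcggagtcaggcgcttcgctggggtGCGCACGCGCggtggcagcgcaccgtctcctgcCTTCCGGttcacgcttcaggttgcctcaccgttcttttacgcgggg
Ndufb4: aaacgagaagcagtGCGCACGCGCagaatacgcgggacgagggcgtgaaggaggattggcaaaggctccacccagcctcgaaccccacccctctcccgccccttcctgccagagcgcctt
Cox6a1: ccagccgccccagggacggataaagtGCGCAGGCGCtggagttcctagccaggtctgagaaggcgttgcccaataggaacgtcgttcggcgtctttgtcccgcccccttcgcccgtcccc
The stretch before Sdha, the gene of the flavoprotein of complex II, holds 2 NRF-1 matches, and the other 3 stretches hold 1 each.

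Values are log2 CPM, the base 2 logarithm of the counts scaled to library size (CPM) after the authors' scaling of the libraries, and a difference is always PAHSA minus vehicle on that scale. The estimated counts recovered from the table ranged from 34461742 to 45236238 per library. Each gene was tested with limma over all 12231 genes with a mean log2 CPM above 0, with Benjamini-Hochberg adjustment over all of them and a threshold of 0.05. By limma 0 of the 12231 genes passed (0% called), the smallest adjusted p being 0.671. At an unadjusted p under 0.05, 369 genes (3.02%) were higher and 525 (4.29%) lower in PAHSA. All 12 beta cell markers and all 7 alpha cell markers on the lists were present in the table. Presence alone does not show islet identity, since most acinar and duct markers were present too. Shares of CPM are given on the nominal counts-per-million scale. They are not fractions of a library's own CPM sum, which ranged from 965680 to 1069261. The share of CPM from beta cell markers was 13.8% to 18.1% in vehicle and 14.3% to 17.7% in PAHSA, a sum in which the most abundant genes weigh most. Of the 12 markers 9 were higher and 3 lower in PAHSA, 3 higher and 1 lower at an unadjusted p under 0.05. Their mean log2 CPM was 9.38 to 9.60 in vehicle and 9.69 to 9.83 in PAHSA, without overlap. Taken singly, 2 of the 12 had all PAHSA libraries above all vehicle libraries and 0 showed the reverse. Over all tested genes these patterns were seen in 2.06% and 1.95%. Of 31 acinar markers, genes of the digestive enzyme cells around the islets, 29 were in the table, with a share of CPM of 1.12% to 4.47% in vehicle and 0.0533% to 1.69% in PAHSA. All 27 tested acinar markers were lower in PAHSA, 17 of them at an unadjusted p under 0.05. Of 10 tested duct markers 2 were higher and 8 lower, and for 4 of the lower ones the unadjusted p was under 0.05. For T and NK cells 2 of 13 markers, for B cells 1 of 7, for macrophages and dendritic cells 4 of 12 and for endothelium 4 of 9 were in the table. Of those tested, macrophage and dendritic cell markers were 1 higher and 3 lower, and endothelial markers 0 higher and 4 lower. Stellate cell, fibroblast and pericyte markers were 1 higher and 9 lower, delta and PP cell markers 0 higher and 5 lower, and alpha cell markers 6 higher and 1 lower.

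No subunit gene of any complex passed the test, and most differed very little between the groups. Of the 80 tested members 37 were higher and 43 lower in PAHSA, with a median difference of -0.02, against 6001 higher, 6230 lower and a median of -0.01 over all 12231 genes. The differences ran from -0.33 for Atp5s to 0.96 for Cox6a2, and 76 of the 80 lay within 0.25 of 0. By limma 0 members passed the adjusted threshold. At an unadjusted p under 0.05 there was 1 member higher, Sdha, and 0 lower, against the 3.02% and 4.29% of all genes. Sdha was also the 1 member whose 4 PAHSA libraries all lay above the 4 vehicle libraries, a pattern that 2.06% of all tested genes showed, while 0 members showed the reverse, which 1.95% of all genes did. In bulk islet RNA a change in the number of cells of a type and a change in RNA per cell cannot be told apart.

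The small differences were measured with fair precision. The median SE of a member's difference was 0.14, against 0.25 over all tested genes. For 64 of the 80 members (80%) the 95% confidence interval stayed within 0.5 to either side of 0, which is a 1.41-fold change, as it did for 22.3% of all tested genes and for 46.5% of the 4861 genes with a mean log2 CPM of 5 to 8. It stayed within 1 for 79 of the 80, the exception being Cox6a2. Summed over the members, the subunit genes made up 0.987% ± 0.111 of the CPM scale in the vehicle libraries and 0.979% ± 0.0706 in the PAHSA libraries (SD, n = 4 each).

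**Figure D1:**
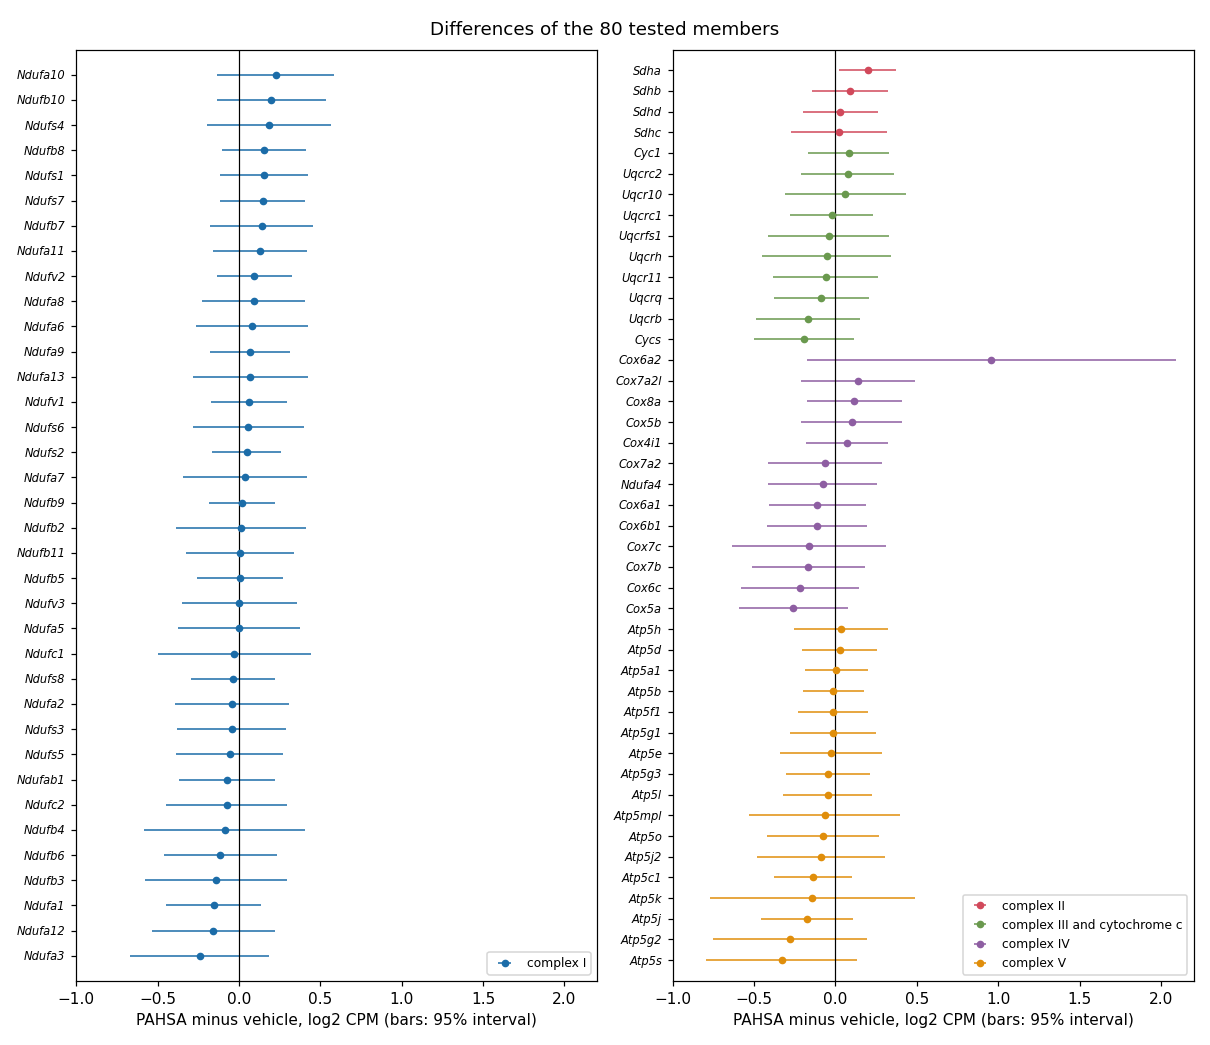
Difference in log2 CPM, PAHSA minus vehicle, of each of the 80 tested members with its 95% confidence interval from limma, coloured by complex and ordered by size. Nearly all points lie close to 0, the interval of Sdha stays above 0, and that of Cox6a2, from -0.18 to 2.09, is the widest.

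Complex I, the NADH dehydrogenase, gave 36 tested genes, of which 22 were higher and 14 lower in PAHSA, with a median of 0.02 and a range of -0.24 to 0.23. Its 7 core subunits, among them those that carry the flavin and the iron-sulfur clusters, were higher in 5 cases and lower in 2, with a median of 0.06. The interval of each of the 7 stayed within 0.5 of 0. The flavoprotein gene Ndufv1 differed by 0.06 (SE 0.11). Ndufs1, the largest core subunit, was at 7.12, 6.70, 7.17 and 6.95 log2 CPM in vehicle libraries 1, 3, 4 and 5 and at 7.06, 7.19, 7.05 and 7.24 in PAHSA libraries 1 to 4, a difference of 0.15 (SE 0.12). The 29 accessory subunits, which surround the core and help to assemble it, were higher in 17 cases and lower in 12, with a median of 0.01.

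Among the accessory subunits the largest positive difference was that of Ndufa10. It was at 6.15, 5.99, 6.74 and 6.12 in vehicle, and at 6.57, 6.51, 6.47 and 6.35 in PAHSA. All 4 PAHSA libraries lay above 3 of the vehicle libraries and below vehicle library 4, so the groups overlapped. The difference was 0.23 (SE 0.16, 95% confidence interval -0.13 to 0.59, limma adjusted p = 0.793). Without vehicle library 4 it was 0.39, with an unadjusted p from limma of 0.00884 and an adjusted p of 0.703. Leaving out the highest vehicle value necessarily raised the difference. In that fit 2.68% of all genes were higher at an unadjusted p under 0.05.

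Ndufb10 and Ndufb8 belong to the membrane arm of complex I. Ndufb10 was at 6.10, 5.99, 6.39 and 6.08 in vehicle and at 6.21, 6.67, 6.36 and 6.11 in PAHSA, a difference of 0.20 (SE 0.15). Ndufb8 was at 7.24, 7.08, 7.39 and 7.35 in vehicle and at 7.31, 7.65, 7.44 and 7.28 in PAHSA, a difference of 0.15 (SE 0.12). In both genes PAHSA library 2 was the highest of all 8, and the other 3 PAHSA libraries lay among the vehicle values or just above them. At the other end stood Ndufa3, a small accessory subunit, at 5.57, 5.70, 6.33 and 5.90 in vehicle and 5.58, 6.01, 5.49 and 5.47 in PAHSA. Its difference was -0.24 (SE 0.19, 95% confidence interval -0.67 to 0.19), and the highest value was again that of vehicle library 4.

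Complex II, succinate dehydrogenase, is also an enzyme of the TCA cycle. All 4 of its genes were higher in PAHSA, as were 49.1% of all tested genes. Their median was 0.06, and Sdha accounted for the largest difference. Sdha (ENSMUSG00000021577, chr13:74322254-74350280 on the minus strand in GRCm38) encodes the flavoprotein that oxidises succinate. It was at 8.34, 8.40, 8.22 and 8.37 log2 CPM in vehicle and at 8.49, 8.54, 8.56 and 8.53 in PAHSA. The PAHSA libraries lay within a narrow band above the highest vehicle library. The means were 8.33 ± 0.08 and 8.53 ± 0.03 (SD, n = 4 each), a difference of 0.20 (SE 0.08, 95% confidence interval 0.02 to 0.37) or 1.15-fold. The unadjusted p from limma was 0.0293 and the adjusted p 0.671, so Sdha did not pass. The unadjusted p exceeded 0.05 when any of 5 libraries was left out (vehicle 1 or 4, PAHSA 2, 3 or 4), reaching 0.0667 without vehicle library 4, and was 0.111 in limma without the mean-variance trend. With the acinar marker level as a covariate the difference was 0.18 (SE 0.10) and the unadjusted limma p 0.0858. The span of Sdha, introns included, overlaps a gene on the opposite strand in the annotation. The library kit does not mark strand, so reads from any shared exon sequence could not be told apart. Whether the exons overlap was not checked.

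The other genes of complex II showed smaller differences. Sdhb, the iron-sulfur subunit, was at 6.96, 6.96, 7.24 and 7.10 in vehicle and at 7.24, 7.22, 7.14 and 7.01 in PAHSA, a difference of 0.09 (SE 0.11). The membrane anchor Sdhc was at 5.85, 5.86, 6.10 and 5.80 in vehicle and at 5.74, 6.10, 5.97 and 5.90 in PAHSA, a difference of 0.02 (SE 0.13). The other membrane anchor, Sdhd, was at 7.14, 7.21, 7.39 and 7.12 in vehicle and at 7.12, 7.19, 7.31 and 7.36 in PAHSA, a difference of 0.03 (SE 0.10). The groups overlapped in all 3 genes. Scaled to transcript length, the vehicle levels were 111 ± 6.03 CPM per kb for Sdha, 118 ± 10.9 for Sdhb, 121 ± 10.7 for Sdhd and 30.1 ± 2.88 for Sdhc, so that Sdhc was the lowest and the other 3 did not differ beyond their spread. The share of CPM of the 4 genes together was 0.0666% ± 0.00157 in vehicle and 0.0725% ± 0.00162 in PAHSA, a sum in which Sdha has the largest part.

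**Figure D2:**
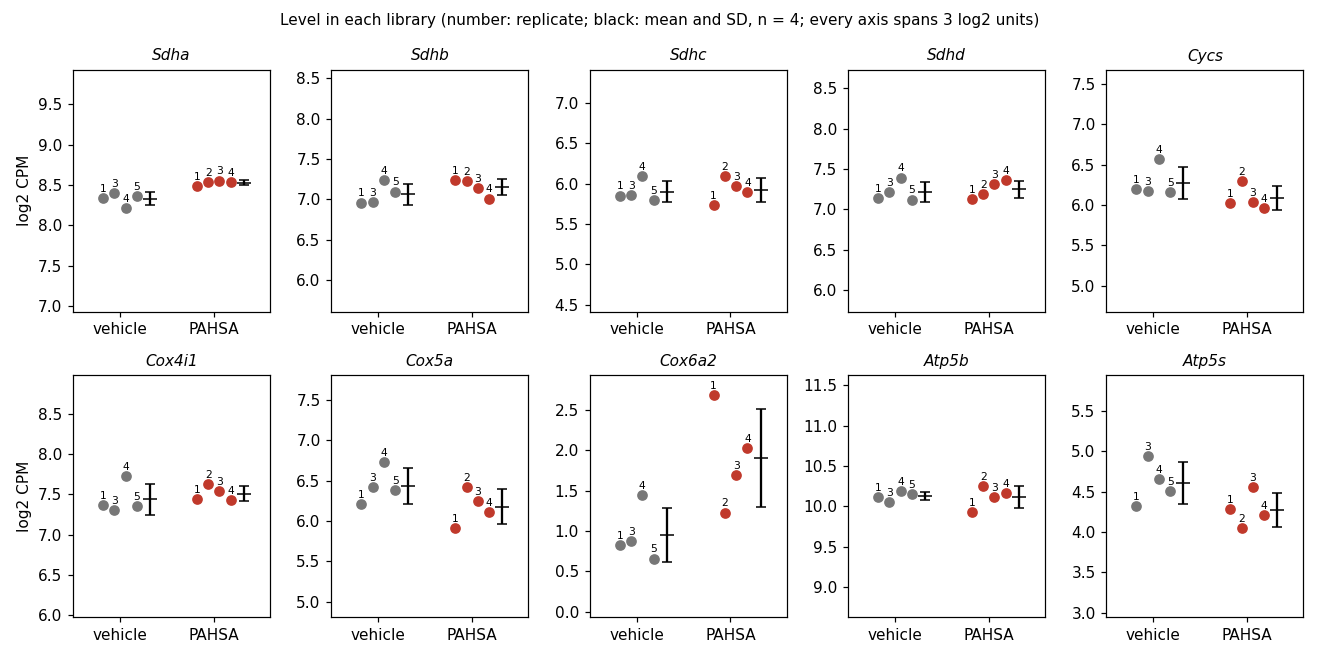
Level in log2 CPM of single members in each library, vehicle on the left and PAHSA on the right of each panel, with the replicate number beside each point and the mean and SD (n = 4) in black; every vertical axis spans 3 log2 units. The 4 PAHSA points of Sdha lie between 8.49 and 8.56, above the 4 vehicle points, and in the other panels the groups overlap.

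Complex III, the cytochrome bc1 complex, and the carrier cytochrome c gave 10 tested genes, 3 higher and 7 lower in PAHSA, with a median of -0.05. The interval of each of the 10 stayed within 0.5 of 0. Of the catalytic subunits, Cyc1, the cytochrome c1 gene, was at 7.07, 7.07, 7.37 and 7.02 in vehicle and at 7.35, 7.11, 7.27 and 7.12 in PAHSA, a difference of 0.08 (SE 0.11). Uqcrfs1, the Rieske iron-sulfur protein, differed by -0.04 (SE 0.17). The core proteins Uqcrc1 and Uqcrc2, which face the matrix, differed by -0.02 (SE 0.12) and 0.07 (SE 0.13).

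The 5 small subunits of complex III were lower in 4 cases. Uqcrb, which binds near the ubiquinone site, was at 7.31, 7.31, 7.83 and 7.32 in vehicle and at 7.16, 7.47, 7.38 and 7.09 in PAHSA, a difference of -0.17 (SE 0.14). Of its vehicle libraries 3 were nearly equal and library 4 stood well above them. The same shape was seen in Cycs, which encodes cytochrome c, the carrier between complexes III and IV that also triggers apoptosis when released. Cycs was at 6.19, 6.17, 6.57 and 6.16 in vehicle and at 6.03, 6.30, 6.04 and 5.96 in PAHSA. The difference was -0.19 (SE 0.14, 95% confidence interval -0.50 to 0.12, limma adjusted p = 0.794).

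Complex IV, cytochrome c oxidase, gave 13 tested genes, 5 higher and 8 lower in PAHSA, with a median of -0.08. Ndufa4, named for complex I but a subunit of complex IV, is counted here. Cox5a, a subunit on the matrix side, was at 6.21, 6.42, 6.73 and 6.38 in vehicle and at 5.92, 6.43, 6.25 and 6.11 in PAHSA, a difference of -0.26 (SE 0.15, 95% confidence interval -0.60 to 0.08, limma adjusted p = 0.748). Cox6c was at 7.46, 7.29, 7.87 and 7.39 in vehicle and at 7.11, 7.67, 7.33 and 7.04 in PAHSA, a difference of -0.22 (SE 0.16). PAHSA library 2 lay above 3 of the vehicle libraries in both genes, and PAHSA libraries 1 and 4 lay below all vehicle libraries. Ndufa4 was at 7.01, 6.90, 7.44 and 6.94 in vehicle and at 6.95, 7.28, 7.01 and 6.75 in PAHSA, a difference of -0.08 (SE 0.15).

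Several subunits of complex IV exist as a common form and a second form found mainly in muscle, lung, testis or low oxygen. The common forms differed little: Cox4i1 by 0.07 (SE 0.11), Cox6a1 by -0.11 (SE 0.14), Cox6b1 by -0.11 (SE 0.14), Cox7a2 by -0.06 (SE 0.16) and Cox8a by 0.12 (SE 0.13). Cox7a2l, a relative of Cox7a2 that helps to join complexes III and IV into supercomplexes, was at 5.76, 5.84, 6.05 and 5.90 in vehicle and at 6.33, 5.94, 6.16 and 5.68 in PAHSA, a difference of 0.14 (SE 0.16). In Cox7a2l, PAHSA library 1 was the highest of the 8 and PAHSA library 4 the lowest.

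Cox6a2, the heart and skeletal muscle form of subunit 6a, showed the largest difference of all members. It was at 0.83, 0.88, 1.44 and 0.66 log2 CPM in vehicle and at 2.69, 1.23, 1.69 and 2.03 in PAHSA. PAHSA libraries 1, 3 and 4 lay above all vehicle libraries, and PAHSA library 2 lay below vehicle library 4. The means were 0.95 ± 0.34 and 1.91 ± 0.61 (SD, n = 4 each), a difference of 0.96 (SE 0.51, 95% confidence interval -0.18 to 2.09) or 1.94-fold. Its unadjusted p from limma was 0.0900 and its adjusted p 0.721, so the test did not call it. In limma without the mean-variance trend its unadjusted p was 0.0184. Per transcript length, Cox6a2 made up 0.905%, 1.01%, 1.07% and 0.744% of the sum of Cox6a1 and Cox6a2 in vehicle and 3.26%, 0.989%, 1.84% and 2.27% in PAHSA, so the common form held at least 96.7% of that sum in every library. The span of Cox6a2 also overlaps a gene on the opposite strand, again without a check of the exons.

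The other second forms were lower still. Cox7a1, the muscle form of subunit 7a, was at -0.65, -2.66, 0.09 and -0.72 in vehicle and at -1.07, -0.37, -0.95 and -3.51 in PAHSA. Ndufa4l2, the relative of Ndufa4 known to be induced in low oxygen, was at -0.65, -0.69, -1.32 and -3.04 in vehicle and at -0.91, -0.48, -1.36 and -2.07 in PAHSA. Both lay below the level for testing, and their groups overlapped widely. Cox4i2, Cox6b2, Cox7b2, Cox8b, Cox8c and a second identifier of Atp5o were not among the genes of the expression table and so could not be analysed.

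Complex V, the ATP synthase, gave 17 tested genes, 3 higher and 14 lower in PAHSA, all but Atp5s and Atp5g2 by less than 0.25, with a median of -0.05. The F1 head and its central stalk, which make ATP, gave 2 genes higher and 3 lower. Atp5b, the catalytic beta subunit (ENSMUSG00000025393, chr10:128083273-128090391 on the plus strand in GRCm38), was at 10.12, 10.06, 10.18 and 10.15 in vehicle and at 9.93, 10.25, 10.12 and 10.17 in PAHSA. Its difference of -0.01 had an SE of 0.09 and a 95% confidence interval of -0.20 to 0.18. Per transcript length Atp5b was the most abundant member, at 584 ± 22.0 CPM per kb in vehicle and 581 ± 52.9 in PAHSA. Atp5a1, the alpha subunit, differed by 0.01 (SE 0.09), and Atp5c1, the gamma subunit of the rotating stalk, by -0.14 (SE 0.11).

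The c ring, which turns as protons pass, is built of 1 mature protein encoded by 3 genes. Atp5g1 was at 7.44, 7.44, 7.88 and 7.60 in vehicle and at 7.41, 7.68, 7.62 and 7.58 in PAHSA, a difference of -0.02 (SE 0.12). Atp5g3 was at 7.66, 7.67, 8.06 and 7.79 in vehicle and at 7.65, 7.96, 7.70 and 7.68 in PAHSA, a difference of -0.05 (SE 0.12). Atp5g2 was at 5.04, 5.08, 5.74 and 5.29 in vehicle and at 5.01, 5.44, 4.85 and 4.75 in PAHSA, a difference of -0.28 (SE 0.21). Vehicle library 4 was the highest in all 3 genes, and in each the PAHSA values overlapped those of vehicle. The 3 genes are close relatives, and reads shared between them are divided by a model, which makes their single values less certain.

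The peripheral stalk, which holds the head still, gave 1 gene higher and 3 lower. Atp5j, coupling factor 6, was at 7.37, 7.26, 7.84 and 7.48 in vehicle and at 7.23, 7.37, 7.39 and 7.26 in PAHSA, a difference of -0.17 (SE 0.13). The d subunit Atp5h was at 6.88, 6.72, 7.23 and 6.77 in vehicle and at 6.97, 6.89, 7.06 and 6.80 in PAHSA, the largest positive difference in the complex at 0.03 (SE 0.13). The 4 small membrane subunits, Atp5j2, Atp5k, Atp5l and Atp5mpl, differed by -0.05 to -0.14.

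The largest negative difference of all members was that of Atp5s, the gene of coupling factor B. It was at 4.32, 4.94, 4.65 and 4.51 in vehicle and at 4.29, 4.05, 4.56 and 4.21 in PAHSA, a difference of -0.33 (SE 0.21, 95% confidence interval -0.79 to 0.14, limma adjusted p = 0.758). PAHSA library 3 lay above vehicle libraries 1 and 5, so the groups overlapped. At 16.0 ± 2.95 CPM per kb in vehicle, Atp5s was also the lowest tested member per length except Cox6a2. Atpif1, the inhibitor that stops the ATP synthase from running in reverse, falls outside the naming rule but acts on the same enzyme. It was at 6.58, 6.57, 7.01 and 6.59 in vehicle and at 6.77, 6.97, 6.88 and 6.78 in PAHSA, a difference of 0.16 (SE 0.13), and all PAHSA libraries lay above 3 vehicle libraries and below vehicle library 4. Usmg5, a small membrane subunit of the ATP synthase, also falls outside the rule by its symbol. It was at 6.61, 6.78, 7.49 and 6.76 in vehicle and at 6.37, 7.07, 6.50 and 6.37 in PAHSA, a difference of -0.33 (SE 0.21), slightly beyond that of Atp5s. Its groups overlapped, with vehicle library 4 the highest and PAHSA library 2 next.

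The subunit genes varied together from library to library by more than the groups differed. Vehicle library 4 was the highest of its group in 73 of the 80 members, against 29.7% of all tested genes. It was highest in 33 of 36 genes of complex I, 3 of 4 of complex II, 9 of 10 of complex III and cytochrome c, 13 of 13 of complex IV and 15 of 17 of complex V. A member lay a median of 0.39 above the mean of the other 3 vehicle libraries there, while over all genes that median was 0.00. PAHSA library 2 was the highest of its group in 59 of the 80 members (23.5% of all genes), by a median of 0.23. PAHSA library 4 was the lowest of its group in 45 of the 80 (26.9% of all genes), by a median of -0.17. The mean log2 CPM of the 80 members was 6.44, 6.44, 6.82 and 6.48 in vehicle and 6.51, 6.70, 6.53 and 6.41 in PAHSA. The balance of signs rested on single libraries: without vehicle library 4, 65 members were higher and 15 lower in PAHSA, and the medians of complexes I to V became 0.10, 0.12, 0.05, 0.05 and 0.03. Without PAHSA library 2 the split was 28 higher and 52 lower.

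**Figure D3:**
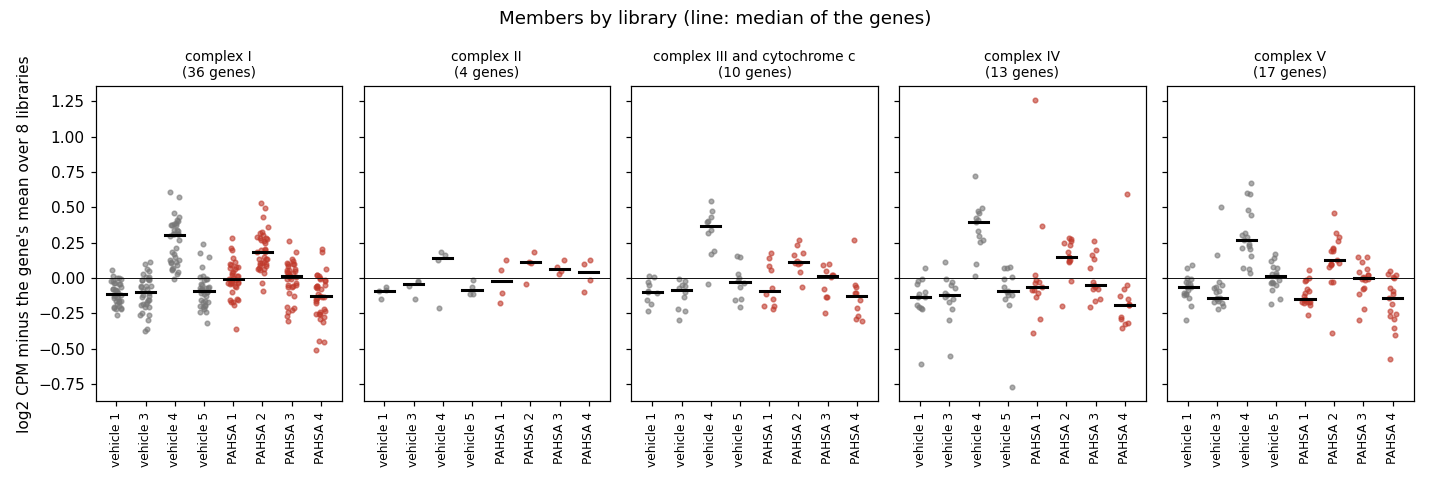
Log2 CPM of each tested member minus its own mean over the 8 libraries, by complex and library, with the median of the genes as a line. Vehicle library 4 stands above the other vehicle libraries in every complex, PAHSA library 2 is raised to a lesser degree, and complex II varies least.

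Other measures differed in the same libraries. The acinar markers took 4.47% of CPM in vehicle library 4 and 1.69% in PAHSA library 2, the highest of each group, and 0.0533% in PAHSA library 4, the lowest of all 8. The order was not the same in every library. Vehicle library 5 was at 2.79% with a mean of 6.48 log2 CPM for the members, against 6.70 in PAHSA library 2. PAHSA library 1 was at 0.415% with a mean of 6.51, above the 6.44 of vehicle libraries 1 and 3, which were at 1.12% and 1.14%. The summed share of beta cell markers was also highest of its group in vehicle library 4 and PAHSA library 2, at 18.1% and 17.7%, but their mean log2 CPM was not: it was 9.53 and 9.72, against highest values of 9.60 in vehicle and 9.83 in PAHSA. With the acinar marker level as a covariate, 68 members were higher and 12 lower in PAHSA, and 0 passed the adjusted threshold in limma. Over all genes the median difference in that fit was 0.003. All 27 tested acinar markers were lower in PAHSA, so this fit cannot cleanly separate the acinar level from the treatment. Transcript length moved with the pattern as well. The members are short, with a median length of 751 nt against 2688 nt over all tested genes, and 78 of the 80 are shorter than that. In vehicle library 4 the 40 shorter members lay a median of 0.46 above the other vehicle libraries and the 40 longer ones 0.24. Across the 80 members the deviation of vehicle library 4 had a Spearman rho with length of -0.51, that of PAHSA library 2 -0.44 and that of PAHSA library 4 0.42. Over all genes with a length these were -0.27, -0.08 and 0.09. With the trend of each library on length removed, an alternative added after seeing the data, 51 members were higher and 29 lower in PAHSA. That step also moved the median difference over all genes from -0.01 to 0.05, so the split cannot be read as particular to the members. The genes of one library share its preparation and are not independent, so these are descriptions. The part of acinar RNA and of length in the pattern was not tested beyond these values.

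**Figure D4:**
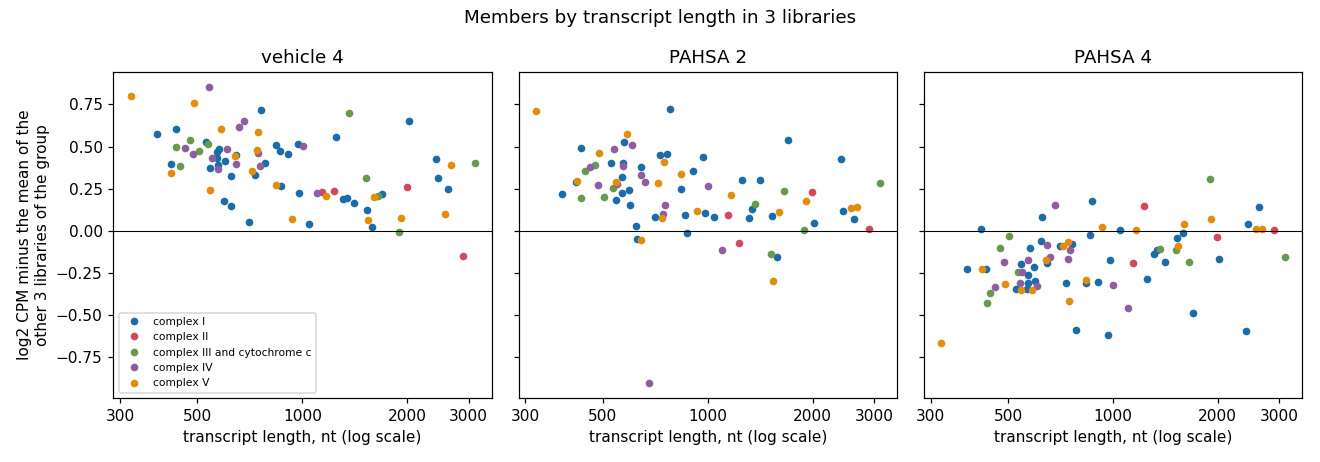
Log2 CPM of each tested member minus the mean of the other 3 libraries of its group, against transcript length in nt on a log scale, in vehicle library 4, PAHSA library 2 and PAHSA library 4, coloured by complex. Short transcripts lie farthest above 0 in the first and second library (Spearman rho -0.51 and -0.44) and farthest below 0 in the third (0.42).

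The 13 subunits encoded by mitochondrial DNA form the rest of complexes I, III, IV and V. Of these 3 were higher and 10 lower in PAHSA, with a median of -0.05 and a range of -0.28 to 0.11, and 0 reached an unadjusted p under 0.05 in limma. The gene with the smallest p was mt-Nd1, a membrane subunit of complex I, at 9.60, 9.71, 10.01 and 9.67 in vehicle and 9.73, 9.65, 9.60 and 9.59 in PAHSA. It differed by -0.10 (SE 0.10). The share of CPM of the 13 transcripts was 0.965%, 1.06%, 1.16% and 0.97% in vehicle and 1.12%, 1.05%, 1.04% and 0.879% in PAHSA, so the groups overlapped. Vehicle library 4 was the highest on this scale, but its CPM summed to 1069261, against 965680 in PAHSA library 1. As fractions of each library's own sum, PAHSA library 1 would be the highest.

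Assembly factors build the complexes without remaining in them. Of 52 on the list 49 were tested, 28 higher and 21 lower in PAHSA, with a median of 0.03, and 2 were higher and 0 lower at an unadjusted p under 0.05, close to the 3.02% of all genes that were higher at that level. Coa7, an assembly factor of complex IV, was at 4.42, 4.04, 4.27 and 3.92 in vehicle and at 4.71, 4.67, 4.54 and 5.08 in PAHSA, with all PAHSA libraries above all vehicle libraries, as in 2.06% of all tested genes. It differed by 0.59 (SE 0.21, limma adjusted p = 0.671). Nubpl, which delivers iron-sulfur clusters to complex I, was at 3.16, 1.75, 2.13 and 2.54 in vehicle and at 3.50, 3.78, 2.95 and 3.60 in PAHSA. It differed by 1.06 (SE 0.38, limma adjusted p = 0.671), and PAHSA library 3 lay below vehicle library 1. For complexes II, III and V the factors with the smallest p were Sdhaf3 with a difference of 0.54 (SE 0.50), Ttc19 with -0.15 (SE 0.18) and Atpaf1 with -0.17 (SE 0.24).

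Of 21 tested regulators of transcription and of mitochondrial gene expression, 8 were higher and 13 lower in PAHSA, with a median of -0.08. At an unadjusted p under 0.05 in limma 1 was higher and 1 lower, close to the 3.02% and 4.29% of all genes. Yy1, a transcription factor with known sites in respiratory chain promoters, was at 3.82, 3.64, 3.70 and 3.83 in vehicle and at 4.18, 4.14, 4.62 and 4.21 in PAHSA. All PAHSA libraries lay above all vehicle libraries, as in 2.06% of all tested genes. It differed by 0.54 (SE 0.21, unadjusted p = 0.0284, limma adjusted p = 0.671). Gabpa, the DNA-binding subunit of the ETS factor GABP, was at 4.94, 5.77, 5.60 and 5.12 in vehicle and at 3.92, 4.37, 5.54 and 4.66 in PAHSA. It differed by -0.74 (SE 0.33, unadjusted p = 0.0461, limma adjusted p = 0.677), and PAHSA library 3 lay among the vehicle values. The span of Gabpa overlaps that of the member Atp5j on the opposite strand, and an overlap of exons was not checked. Nrf1, the gene of NRF-1, differed by -0.11 (SE 0.27). None of these genes passed the adjusted threshold.

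The neighbouring routes of energy metabolism give the scale of these differences. The 13 enzymes of the TCA cycle were 7 higher and 6 lower, with a median of 0.03 and 0 at an unadjusted p under 0.05 in limma. The 78 mitochondrial ribosomal proteins were 48 higher and 30 lower, with a median of 0.05. At that level 4 were higher and 0 lower, against 3.02% and 4.29% of all genes. Of 13 glycolysis enzymes 1 was higher and 12 lower, with a median of -0.42. In limma 9 were lower at an unadjusted p under 0.05, against 4.29% of all genes, while 0 passed after adjustment. The difference between the glycolysis genes and the respiratory chain genes was not tested.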

How the data were processed

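Islet RNA was purified on columns and turned into Nextera XT libraries, by a kit that does not mark strand, per the labels' protocols. kallisto and limma were used by the authors, per the submitters' processing notes. Their versions, the genome build and the annotation are not given in the labels used here. The deposited values are log2 CPM after the authors' scaling and filter, in 8 columns matched to libraries by name. CPM summed to 965680 to 1069261 per library, so scaling was not by the plain total. Estimated counts recovered by assuming 0.5 added counts were within 0.01 of a whole number for 47.8% to 51.5% of values, so no count test was run. Intervals come from the spread between libraries.

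Symbols, positions and strand overlap came from GENCODE M21 (GRCm38) by gene identifier; 56 of 13725 identifiers had no symbol. Complex assignment followed the symbol, with Ndufa4 and Ndufa4l2 in complex IV. Of the 82 members in the table, 30 overlap a gene on the other strand by their whole spans, introns included. Length is the median over a gene's basic protein-coding transcripts. Groups were compared two-sided with limma 3.58.1 (R 4.3.3; a linear model of group alone and moderated variances that follow the mean) on the 12231 genes with a mean log2 CPM above 0; 1494 were left out. The script was tested on simulated data. A log2 CPM difference understates the change of weakly expressed genes.

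Named genes were, in each complex, the 3 with the smallest p and the largest difference each way, every member at an unadjusted p under 0.05, and a set of subunits and isoforms chosen by function; other genes are named as examples of their role after their values were seen. In the pathway lists they were the genes at an unadjusted p under 0.05, or else the one with the smallest p. Members and lists were chosen with earlier results of these data known. There were 17 alternatives set out at the start and 2 added after seeing the data (removal of a transcript length trend, and leaving out both libraries numbered 4).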

Additional observations from a re-analysis of the deposited data

Results flagged for a closer look

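Values were looked at for 1 library standing apart from the other 3 of its group by Dixon's criterion for 4 samples, over 86 groups of values. Chance gives such a gap in about 1 in 20 groups, and these groups share their libraries; 10 were found, of which 9 were in vehicle library 4. There the log2 CPM of Cycs was 6.574 against 6.155 to 6.192 in the other vehicle libraries, that of Uqcrb 7.831 against 7.308 to 7.323, and that of Cyc1 7.366 against 7.015 to 7.072. Cox4i1 was at 7.730 against 7.306 to 7.364, Cox8a at 7.765 against 7.283 to 7.364, and the inhibitor Atpif1 at 7.012 against 6.567 to 6.588. The mean log2 CPM of all 80 tested members was 6.823 there against 6.437 to 6.479, that of complex I 6.535 against 6.170 to 6.192, and that of complex IV 6.800 against 6.296 to 6.337. In PAHSA library 3, Yy1 was at 4.622 against 4.136 to 4.214 in the other PAHSA libraries.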

How the results depend on the processing

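Across the 19 alternatives 0 genes and 0 members passed an adjusted p of 0.05 in limma. The count of members higher in PAHSA at an unadjusted p under 0.05, which was 1, became 2 with quantile normalization (Sdha and Atp5b), 4 with the acinar covariate (Ndufs4, Ndufb8, Cox8a and Ndufb10), 2 with the transcript length trend removed (Sdha and Ndufb10), 3 without the libraries numbered 4 (Ndufa10, Cox8a and Ndufb10), 0 with libraries 1, 3 and 4 alone, and 0 to 1 when each library was left out in turn. The shares of all genes higher at that level were 3.72% with quantile normalization, 2.56% with the acinar covariate, 5.41% with the length trend removed, 3.03% without the libraries numbered 4 and 2.79% with libraries 1, 3 and 4 alone. They ranged from 2.48% to 3.18% when each library was left out in turn. Without the mean-variance trend the count of members higher stayed 1, against 2.97% of all genes, but the gene was Cox6a2. The count lower, which was 0, became 1 with libraries 1, 3 and 4 alone (Atp5c1) and 0 to 1 with each library left out (Cox6c, without PAHSA replicate 2). The shares of all genes lower at that level were 3.93% with libraries 1, 3 and 4 alone and 4.64% without PAHSA replicate 2. The median of complex II became 0.14 with the acinar covariate and 0.13 without the libraries numbered 4, and that of complex IV 0.13 without the libraries numbered 4. The cause of these shifts was not tested. The difference of Sdha stayed between 0.16 and 0.27 in all 19, with adjusted p of 0.534 or more. Differences of members near 0 changed sign under some alternatives, among them Atp5b in 5, Atp5g1 in 6, Sdhc in 4 and Sdhd in 2 of 19.

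The replicate block over libraries 1, 3 and 4 gave 0 members higher and 0 lower at an unadjusted p under 0.05. Libraries of the same number did not deviate together (correlations -0.02, -0.017 and -0.022), so the numbers were not taken to pair them.

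How much of the spread between libraries comes from read sampling was not tested. Removing the length trend moved the share of higher genes among those at an unadjusted p under 0.05 from 41.3% to 64.9%.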
